A study of Mus musculus with 12 samples.

Results

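Chemokines are small secreted proteins that steer the movement of leukocytes, and this account follows the mouse genes for chemokines and their receptors in 12 RNA-seq libraries from samples labelled as the Hepa1-6 hepatoma line in liver. Members were the gene symbols that begin with Ccl, Cxcl, Ccr, Cxcr, Xcl, Xcr, Cx3cl or Cx3cr and a number, without Cxcl9, Cxcl10, Ccl5, Cxcr3 and Cxcr2, that reached 10 counts in 3 of the 12 libraries. Of 56 matching symbols 5 were left out by name, and 44 of the remaining 51 met the count rule, among 21878 genes in the table. These were 29 ligands and 15 receptors, and all 44 were tested. The 7 that fell below the rule were Ccl11, Ccl21b, Ccl26, Ccl27b, Ccl28, Ccr10 and Ccr1l1, of which none exceeded 7 counts in a library.

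The groups, with 3 libraries each, were mouse interferon alpha combined with an anti-PD-1 antibody (combination), the anti-PD-1 antibody alone (antiPD1), mouse interferon alpha alone (IFNa) and no treatment (untreated). All 4 carried the same line and tissue labels, while mouse strain, age, dose, route and duration were not given in the sources used here. Hepa1-6 is one hepatoma line of mouse origin, and the libraries are bulk total RNA. The fetal liver and hepatoma gene Afp was abundant throughout, with 6129 ± 687 CPM (counts scaled to normalised library size) in combination, 7019 ± 666 CPM in antiPD1, 9748 ± 1768 CPM in IFNa and 10413 ± 696 CPM in untreated libraries (SD, n = 3 each). The pan-leukocyte gene Ptprc was counted in every library too, at 111 ± 2.36 CPM in combination, 127 ± 85.2 CPM in antiPD1, 39.7 ± 16 CPM in IFNa and 36.9 ± 10.3 CPM in untreated libraries, so leukocyte RNA was present in all 12. Nothing in the labels says that replicates were separate animals or cultures, and p-values therefore measure the spread between these libraries, which may be technical. Library totals ranged from 31317989 to 38536732 counts. The 4 Y-linked genes summed to 30.6 to 52.0 CPM in combination, 26.2 to 94.4 CPM in antiPD1, 15.4 to 27.3 CPM in IFNa and 9.95 to 21.8 CPM in untreated libraries, and 1 of 4 rose with the combination and 4 of 4 with antiPD1. The 8 hepatocyte genes summed to 372 to 1820.2 CPM in combination, 301 to 2934 CPM in antiPD1, 299 to 1524 CPM in IFNa and 186 to 505 CPM in untreated libraries, and 0 of 8 passed. In such bulk samples, fewer cells of a type and less RNA per cell cannot be told apart.

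Chemokines bind G protein-coupled receptors on leukocytes and set up gradients along which cells migrate. Inflammatory CC ligands such as Ccl2 draw monocytes through Ccr2, and others draw macrophages, T cells and NK cells. CXC ligands of the cluster next to one another on mouse chromosome 5 draw neutrophils, and homeostatic ligands such as Cxcl12, Cxcl13, Ccl19 and Ccl21a place lymphocytes and dendritic cells within tissues. Cx3cl1 and Cxcl16 differ from the others in being made as membrane-bound proteins that can be shed, with Cx3cr1 and Cxcr6 as their receptors.

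With antiPD1, 22 of the 44 members rose against untreated libraries and 2 (Cxcl15 and Cxcl5) fell, where 9.76% of all 14330 genes tested rose and 5.08% fell (adjusted p under 0.05). With the combination, 16 members rose and 1 (Cxcl5) fell, where 7.58% of all genes rose and 5% fell. With IFNa alone no member passed, where 0% of all genes did. The same shares stand beside the counts of role groups, marker genes and pathway genes called in these comparisons. The median log2 fold change over the members was 1.63 in combination, 1.72 in antiPD1 and 0.36 in IFNa libraries against untreated ones, beside -0.01, -0.01 and 0.01 over all genes tested. These 3 comparisons use the same untreated libraries, and all rises and falls are given as log2 fold changes. The libraries of antiPD1 and untreated groups did not overlap for 28 members higher and 3 lower with antiPD1 (17.5% and 18.5% of all genes), and those of combination and untreated groups did not for 31 higher and 4 lower (24.7% and 24.8%). Roles were uneven within the family, as the plot of fold changes shows. All 8 CC ligands of monocytes and macrophages rose with antiPD1 and 6 of 8 with the combination, whereas none of the 5 CXC ligands of the neutrophil-attracting cluster rose in either.

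**Figure D1:**
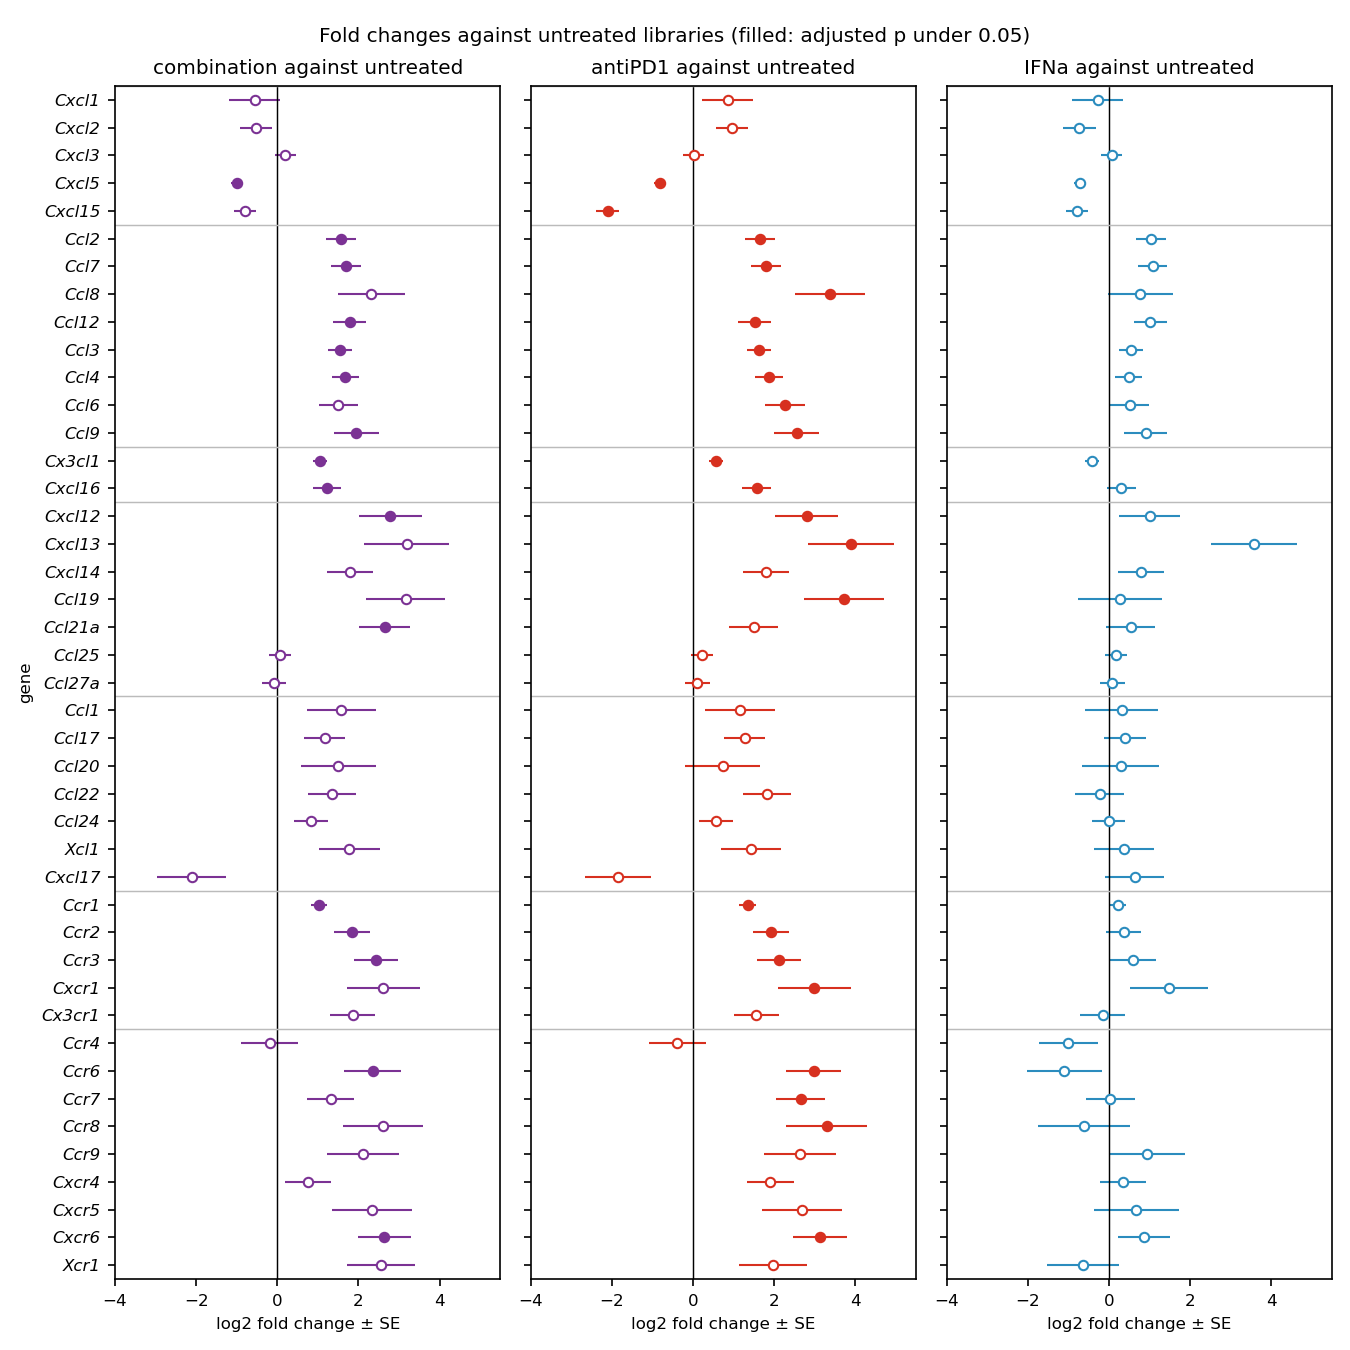
Log2 fold change ± SE of 43 members against untreated libraries for the combination, antiPD1 and IFNa, with filled points for adjusted p under 0.05 and grey lines between role groups. Filled points lie to the right of 0 for 15 of these with the combination and 21 with antiPD1, and the CXC ligands at the top are the filled points to the left of 0.

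Many of these calls depended on single libraries. AntiPD1 replicate 3 held the highest of the 12 values for 25 of the 44 members, and IFNa replicate 1 the lowest for 16. The first principal component of the members, with 71.8% of their variance, had antiPD1 replicate 3 at one end at 10.2 and IFNa replicate 1 at the other at -8.38, with the combination libraries between 4.49 and 5.91. Without antiPD1 replicate 3, 6 members kept their antiPD1 call (Ccl2, Ccl3, Ccl4, Ccr1, Cxcl15 and Cxcl5), with a member median of 1.44 and 39 of 44 fold changes above 0. Over all genes 328 were called in that fit, against 1398 higher and 728 lower in the main fit. Without untreated replicate 1 or untreated replicate 2 the antiPD1 count was 0, and 5 genes and 6 genes of all those tested were called. For the combination, 2 members were called without untreated replicate 1, 2 without untreated replicate 2, 4 without combination replicate 1, 2 without combination replicate 2 and 0 without combination replicate 3. In the same order, these fits called 81, 116, 207, 143 and 33 of all genes. Fitted on the antiPD1 and untreated libraries alone, 0 of 41 members tested were called with antiPD1, and 0 of all genes were. On the combination and untreated libraries alone, 30 of 41 members tested were called with the combination, beside 3789 of all genes. Of 24 calls with antiPD1 and 17 with the combination, 0 held when each library was left out in turn, while the member medians stayed at 1.44 or above in all fits that left out 1 library.

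**Figure D2:**
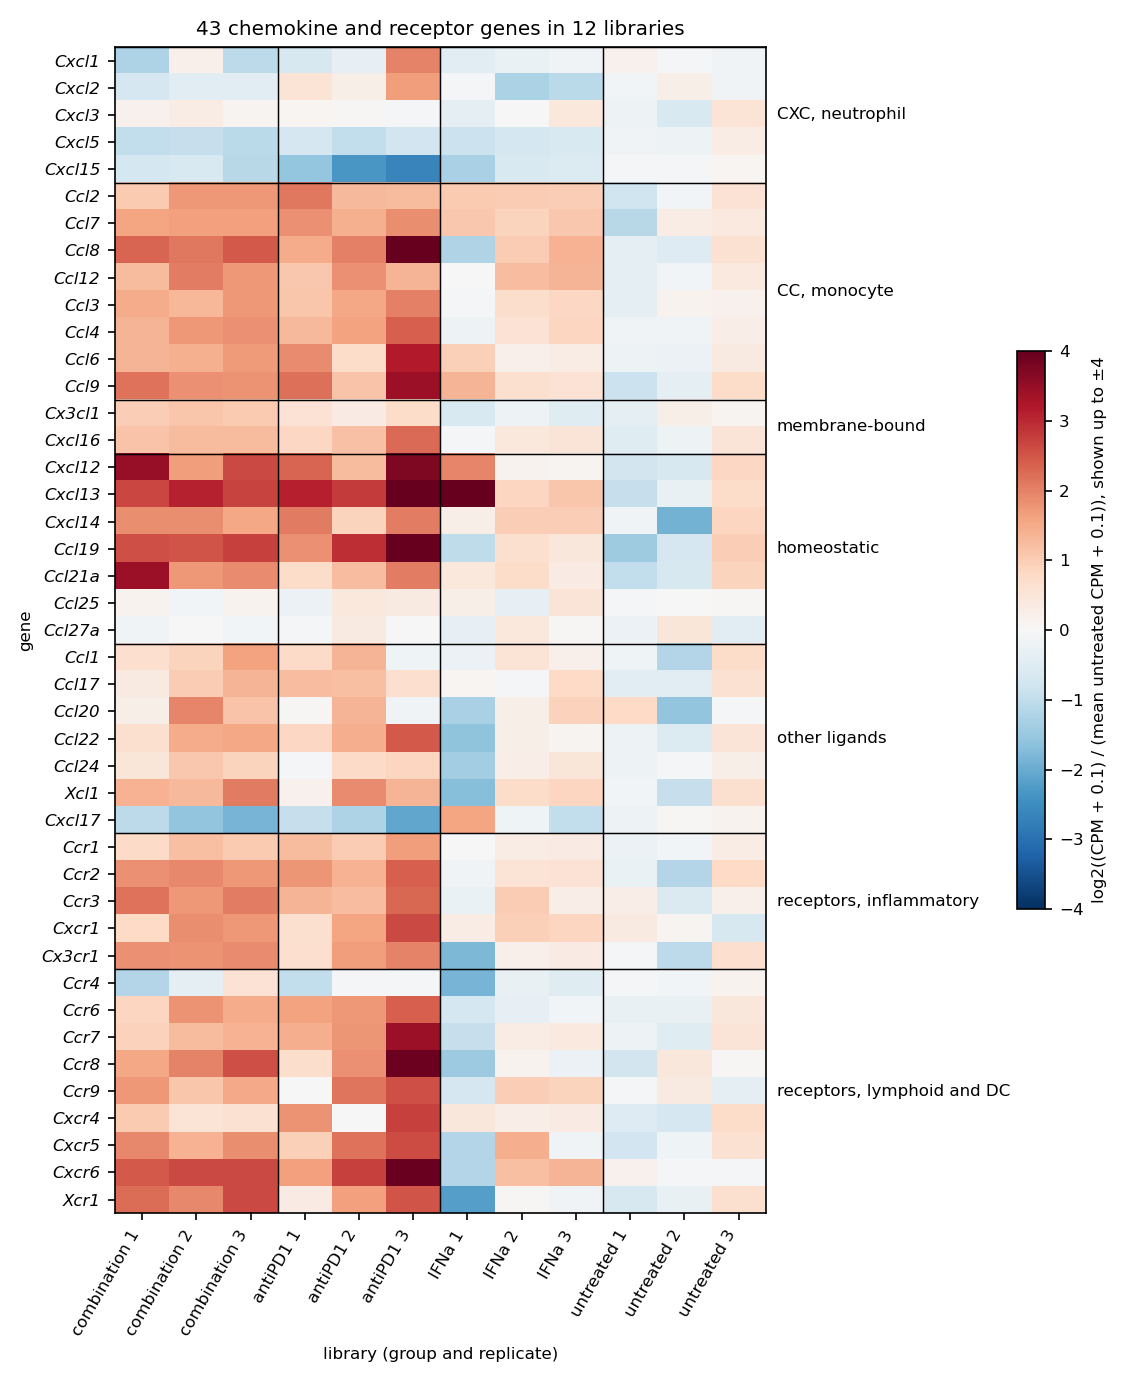
Level of 43 members (rows, by role) in each of the 12 libraries (columns), as log2 of (CPM + 0.1) over the mean untreated CPM + 0.1. Combination libraries resemble each other, antiPD1 replicate 3 has the deepest red for many rows, and Cxcl5 and Cxcl15 are blue in the treated libraries.

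Taken per transcript length, the make-up of the ligand message differed between groups. The 29 ligand members, which leave out Cxcl9, Cxcl10 and Ccl5, summed to 369, 381 and 398 FPKM (fragments per kilobase of gene, scaled to library size) in combination libraries, 320, 299 and 812 FPKM in antiPD1, 164, 215 and 238 FPKM in IFNa and 150, 154 and 240 FPKM in untreated libraries. The 5 CXC ligands of the neutrophil-attracting cluster were 19.1% ± 2.41 of that sum in combination, 17.1% ± 6.35 in antiPD1, 33.4% ± 0.197 in IFNa and 49.0% ± 3.67 in untreated libraries (SD, n = 3 each). No untreated library (45.8% to 53.0%) overlapped with the libraries of a treated group, of which the highest was at 33.6%. The level of the 5 summed genes itself was 73.0 ± 7.86 FPKM in combination, 69.6 ± 10.4 in antiPD1, 68.6 ± 12.4 in IFNa and 87.9 ± 19.2 FPKM in untreated libraries, and on that level the groups overlapped. In CPM, which does not divide by length, the same sum was 84.1 to 107 in combination, 70.3 to 96.9 in antiPD1, 76.9 to 113 in IFNa and 125 to 164 in untreated libraries, so that every treated library lay below every untreated one. The 8 CC ligands of monocytes and macrophages made up 54.0% ± 2.83 in combination, 61.2% ± 11.1 in antiPD1, 43.2% ± 0.574 in IFNa and 29.3% ± 2.51 in untreated libraries. In untreated libraries the leading ligands on average were Cxcl3 at 15.7%, Cxcl15 at 14.6% and Cxcl5 at 12.5%, though in replicate 2 Cxcl3 was the lowest of these 3. Ccl8 led in combination libraries at 21.2% and in antiPD1 libraries at 26.1% on average, followed by Ccl6 at 14.3% in combination and 17.4% in antiPD1 libraries. The antiPD1 mean of Ccl8 came from 14.4%, 21.4% and 42.5% in replicates 1, 2 and 3, and in replicate 1 Ccl6 was higher, at 22.1%.

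**Figure D3:**
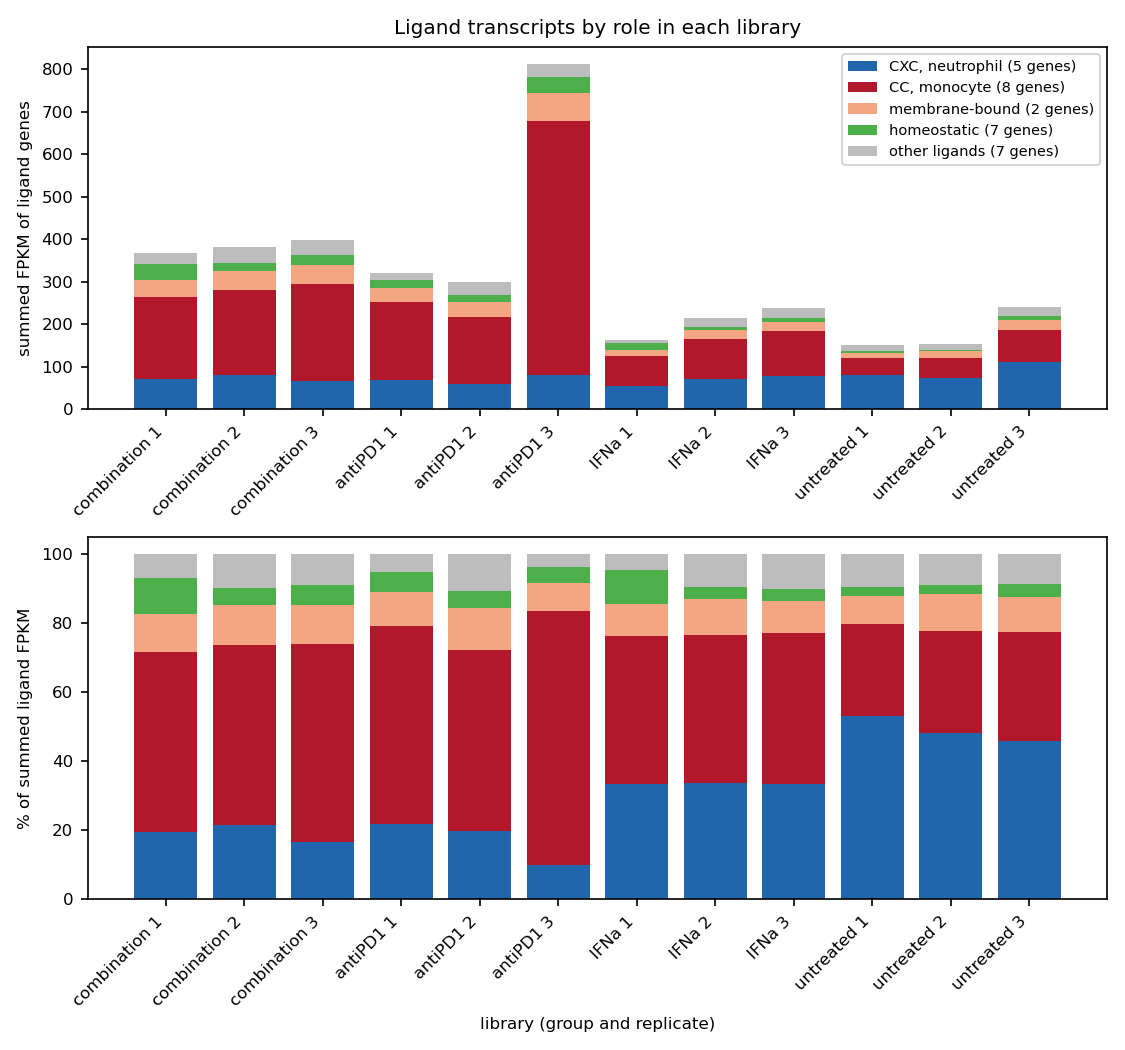
Summed FPKM of the 29 ligand members by role in each library (upper panel) and the same as a percentage of the library's sum (lower panel). The blue part, the neutrophil-attracting CXC cluster, is at most 33.6% of the sum in treated libraries and 45.8% to 53.0% in untreated ones, while its height in the upper panel overlaps between groups in FPKM, though its sum in CPM was at most 113 in treated libraries and 125 or more in untreated ones.

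Neutrophil-attracting CXC ligands came in a run of 147 kb on chromosome 5 (GRCm38, chr5:90759360-90905938) that holds Cxcl5, Cxcl3, Cxcl15, Cxcl1 and Cxcl2. The 5 neighbours had differing values. The promoters of 4 are shown, that of Cxcl5 being not analysed here. The stretch upstream of Cxcl1, Cxcl2 and Cxcl3 holds the same letters of the NF-κB type and that of Cxcl15 does not. Each line gives the 150 bases before the annotated start on the plus strand, from RefSeq on GRCm38.p6, with capitals on the bases covered by a match to the κB-type letters GGGAATTTC, GGGAAATTC or GGGACTTTC on either strand. The windows are chr5:90891095-90891244 for Cxcl1, chr5:90903749-90903898 for Cxcl2, chr5:90785951-90786100 for Cxcl3 and chr5:90794384-90794533 for Cxcl15.
Cxcl1: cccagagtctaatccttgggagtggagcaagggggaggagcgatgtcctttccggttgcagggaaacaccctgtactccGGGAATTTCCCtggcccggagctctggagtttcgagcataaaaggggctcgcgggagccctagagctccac
Cxcl2: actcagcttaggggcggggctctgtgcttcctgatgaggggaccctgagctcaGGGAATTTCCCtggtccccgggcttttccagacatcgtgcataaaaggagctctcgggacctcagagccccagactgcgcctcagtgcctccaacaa
Cxcl3: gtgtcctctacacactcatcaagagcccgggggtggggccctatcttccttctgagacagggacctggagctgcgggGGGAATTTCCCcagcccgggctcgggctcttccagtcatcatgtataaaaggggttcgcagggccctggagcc
Cxcl15: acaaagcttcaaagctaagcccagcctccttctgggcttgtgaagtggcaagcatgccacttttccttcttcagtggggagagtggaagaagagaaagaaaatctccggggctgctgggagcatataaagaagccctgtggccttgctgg
In each of the first 3, a match on the plus strand and a match on the minus strand overlap, so that 11 bases are in capitals. The first capital lies 71 bases before the start in Cxcl1, 97 in Cxcl2 and 73 in Cxcl3. Such a match was present in 0.822% of 32851 RefSeq windows of 300 bases (250 before the start to 50 after it), and among the 34 members with a window in Cxcl1, Cxcl2, Cxcl3 and Ccr3. The interferon-type letters GAAANNGAA (8.56% of windows) were found in Ccl1, Ccl19, Ccl3, Ccr2, Cxcl14 and Cxcr1, and TTCNNNGAA (8.3%) in Ccl17, Ccr6 and Cxcl14, also on either strand. A match is a description of letters and not of binding, and its part in the values of these genes was not tested.

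Cxcl5, a mouse neutrophil attractant that acts through Cxcr2, fell with the combination and with antiPD1. It had 15.8, 16.5 and 14.6 CPM in combination libraries, 19.4, 15.7 and 18.1 in antiPD1, 17.2, 19.2 and 20.5 in IFNa, and 28.1, 27.3 and 38.1 in untreated libraries. Every treated library lay below every untreated one. The log2 fold change was -1.0 ± 0.15 (SE, adjusted p = 0.0096) for the combination, -0.81 ± 0.15 (SE, adjusted p = 0.0191) for antiPD1 and -0.72 ± 0.15 (SE, adjusted p = 0.749) for IFNa, which did not pass. Cxcl15, known in mice as a neutrophil attractant of the lung, had 42.2, 44.8 and 31.4 CPM in combination libraries, 23.2, 13.5 and 11 in antiPD1, 27.5, 45.2 and 46.5 in IFNa, and 66.2, 66.4 and 72.6 in untreated libraries. Untreated libraries were the highest, antiPD1 libraries the lowest, and the 3 treated groups stayed below untreated without overlap. Cxcl15 fell with antiPD1 at -2.11 ± 0.28 (SE, adjusted p = 0.0126), and the combination (-0.79 ± 0.27 SE, adjusted p = 0.0756) and IFNa (-0.78 ± 0.27 SE, adjusted p = 0.866) did not pass. The antiPD1 calls of Cxcl5 and Cxcl15 were lost without untreated replicate 1 or untreated replicate 2, and the combination call of Cxcl5 without combination replicate 3.

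Combination libraries were all above antiPD1 libraries for Cxcl15, a difference of 1.31 ± 0.28 (SE, adjusted p = 0.991) that did not pass, while IFNa libraries were all below untreated ones. The interaction term, which tests this difference of differences, was 2.1 ± 0.39 (SE, adjusted p = 0.37) with edgeR and had an adjusted p of 0.000701 with DESeq2. Neutrophil markers, 8 genes, summed to 141 to 234 CPM in combination, 110 to 220 CPM in antiPD1, 57.8 to 87.0 CPM in IFNa and 33.2 to 54.8 CPM in untreated libraries. Of these 8, 5 rose with the combination and 3 with antiPD1, and 7 had fold changes above 0 in each. Their median log2 fold change was 2.35 with the combination and 1.74 with antiPD1. The scarce marker Ly6g had 0.492 ± 0.179 CPM in combination, 0.648 ± 0.287 CPM in antiPD1, 0.988 ± 1.36 CPM in IFNa and 0.648 ± 0.271 CPM in untreated libraries. Hepatoma genes, summed over 5 markers, were lower in combination (12955 to 17333 CPM) than in untreated libraries (20946 to 23603 CPM). The sums were 14040 to 24073 CPM in antiPD1 and 17837 to 22617 CPM in IFNa libraries, and both ranges overlapped with the untreated one. Of the 5, 2 fell with the combination, 2 with antiPD1 and 0 with IFNa. The part of these cells in the Cxcl5 and Cxcl15 results was not tested.

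Cxcl1 and Cxcl2, both ligands of Cxcr2, did not pass in any comparison. Of the 5 ligands of the cluster, 4 had fold changes below 0 with the combination, 4 with IFNa and 2 with antiPD1. Cxcl1 had 2.03, 5.61 and 2.29 CPM in combination libraries, 3.06, 3.88 and 19.5 in antiPD1, 3.60, 4.03 and 4.43 in IFNa, and 5.54, 4.60 and 4.43 in untreated libraries. AntiPD1 replicate 3 stood alone at the top, and the other 11 libraries lay between 2.03 and 5.61 CPM. The log2 fold change was -0.55 ± 0.63 (SE, adjusted p = 0.574) for the combination and 0.86 ± 0.63 (SE, adjusted p = 0.356) for antiPD1. Without combination replicate 2 the combination gave -1.17, and without antiPD1 replicate 3 the antiPD1 value changed sign to -0.47. Cxcl2 had 4.06, 4.83 and 4.88 CPM in combination libraries, 9.57, 7.81 and 21 in antiPD1, 6.22, 2.66 and 3.07 in IFNa, and 6.03, 7.79 and 5.93 in untreated libraries. Combination libraries lay below untreated ones and antiPD1 libraries above them, with neither the combination (-0.52 ± 0.40 SE, adjusted p = 0.392) nor antiPD1 (0.96 ± 0.40 SE, adjusted p = 0.117) passing. Between the treatments, Cxcl2 was -1.48 ± 0.40 (SE, adjusted p = 0.991) and Cxcl1 -1.41 ± 0.64 (SE, adjusted p = 0.997) for the combination against antiPD1. The Cxcl1 value was -0.07 without antiPD1 replicate 3 and -2.02 without combination replicate 2. Cxcl2 and Cxcl3 share 116 bases at 98.3% identity, so some reads could have been split between them. Cxcl3, singled out after its values were seen because it led the untreated ligands on average, had 33.1 ± 2.43 CPM in combination, 29.1 ± 1.59 CPM in antiPD1, 30.2 ± 8.21 CPM in IFNa and 28.8 ± 12.3 CPM in untreated libraries (SD, n = 3 each), and its log2 fold changes lay between 0.01 and 0.20 in all 5 pairwise comparisons.

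All 8 CC ligands of monocytes and macrophages had fold changes above 0 with each treatment. Their median log2 fold change was 1.69 for the combination, 1.83 for antiPD1 and 0.84 for IFNa, and they lie in 2 neighbouring runs on chromosome 11. Ccl2, the ligand that draws monocytes through Ccr2, had 5.98, 9.68 and 9.82 CPM in combination libraries, 12.7, 7.12 and 7.08 in antiPD1, 5.98, 5.92 and 5.69 in IFNa, and 1.59, 2.64 and 4.34 in untreated libraries. Treated libraries of all 3 groups were above the untreated ones, and the 3 IFNa values were nearly equal. Ccl2 rose with the combination (1.57 ± 0.37 SE, adjusted p = 0.0272) and with antiPD1 (1.65 ± 0.37 SE, adjusted p = 0.0222), and IFNa gave 1.03 ± 0.37 (SE, adjusted p = 0.866). Ccl7, another Ccr2 ligand, had 3.86, 4.04 and 4.05 CPM in combination libraries, 4.67, 3.46 and 4.68 in antiPD1, 2.73, 2.37 and 2.70 in IFNa, and 0.519, 1.52 and 1.65 in untreated libraries. Again no treated library reached down to the untreated range. Ccl7 rose by 1.69 ± 0.36 (SE, adjusted p = 0.022) with the combination and 1.79 ± 0.36 (SE, adjusted p = 0.0207) with antiPD1, and IFNa gave 1.08 ± 0.36 (SE, adjusted p = 0.866). Ccl12, a mouse Ccr2 ligand, had 3.38, 5.93 and 4.74 CPM in combination libraries, 2.97, 5.07 and 3.64 in antiPD1, 1.38, 3.29 and 3.59 in IFNa, and 1.01, 1.25 and 1.80 in untreated libraries. Its combination and antiPD1 libraries were above the untreated ones, and IFNa replicate 1 fell within the untreated range. Ccl12 rose by 1.79 ± 0.41 (SE, adjusted p = 0.0249) with the combination and 1.52 ± 0.41 (SE, adjusted p = 0.0334) with antiPD1.

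Ccl8, which in mice is a ligand of Ccr8, was the most abundant ligand member per length in the mean of combination and of antiPD1 libraries, though Ccl6 led in antiPD1 replicate 1 with 70.6 FPKM against 46.0 FPKM of Ccl8. It had 35.2, 30.9 and 38.8 CPM in combination libraries, 19.9, 28.5 and 169 in antiPD1, 2.97, 14.3 and 18.7 in IFNa, and 5.35, 4.84 and 10.8 in untreated libraries. AntiPD1 replicate 3 was far above every other library. The rise with antiPD1 (3.37 ± 0.86 SE, adjusted p = 0.0303) became 1.79 with an adjusted p of 0.117 without that replicate. The combination, whose 3 libraries lay close together and above the untreated ones, gave 2.31 ± 0.83 (SE, adjusted p = 0.0861). Ccl3 and Ccl4, known as macrophage inflammatory proteins, were less variable. Ccl3 had 13.8, 12.3 and 16.6 CPM in combination libraries, 10.8, 14.6 and 20.2 in antiPD1, 4.68, 8.01 and 8.86 in IFNa, and 3.79, 5.38 and 5.53 in untreated libraries. Combination and antiPD1 libraries were above untreated ones throughout. Ccl3 rose by 1.54 ± 0.29 (SE, adjusted p = 0.0169) with the combination and 1.63 ± 0.29 (SE, adjusted p = 0.0191) with antiPD1. Ccl4 had 8.43, 11 and 11.9 CPM in combination libraries, 8.16, 10.1 and 17.4 in antiPD1, 2.79, 4.89 and 6.05 in IFNa, and 2.92, 2.95 and 3.91 in untreated libraries. It too was above the untreated range in all 6 libraries that received antiPD1, with 1.68 ± 0.34 (SE, adjusted p = 0.0188) for the combination and 1.87 ± 0.34 (SE, adjusted p = 0.0191) for antiPD1.

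Ccl6 and Ccl9 are mouse CC ligands of Ccr1. Ccl9 had 34.3, 27 and 26.6 CPM in combination libraries, 35.2, 16.7 and 81.9 in antiPD1, 19.6, 11.8 and 11.4 in IFNa, and 4.18, 5.92 and 12.7 in untreated libraries. Both groups with antiPD1 were above the untreated one, and IFNa libraries overlapped with it. Ccl9 rose by 1.95 ± 0.55 (SE, adjusted p = 0.0436) with the combination and 2.55 ± 0.56 (SE, adjusted p = 0.0219) with antiPD1, the antiPD1 value being 1.78 with an adjusted p of 0.0647 without antiPD1 replicate 3. Without untreated replicate 3 its log2 fold changes were 2.53 with the combination and 3.14 with antiPD1. Ccl6 had 75.3, 78.8 and 94.3 CPM in combination libraries, 108, 48.6 and 266 in antiPD1, 56.1, 33.5 and 35.7 in IFNa, and 25.3, 25.1 and 37.3 in untreated libraries. Both groups lay above the untreated libraries, and antiPD1 replicate 3 was again the highest. Ccl6 rose with antiPD1 at 2.27 ± 0.49 (SE, adjusted p = 0.0219), which was 1.43 with an adjusted p of 0.0556 without antiPD1 replicate 3, and the combination gave 1.5 ± 0.48 (SE, adjusted p = 0.0637). Macrophage and monocyte markers moved alongside. Of 10 such genes, 6 rose with the combination and 10 with antiPD1, and their summed level was 1498 to 1894 CPM in combination, 1134 to 4652 CPM in antiPD1, 390 to 654 CPM in IFNa and 350 to 612 CPM in untreated libraries. None of the 10 markers was at 0 in any library, and the part of these cells in the ligand values was not tested.

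**Figure D4:**
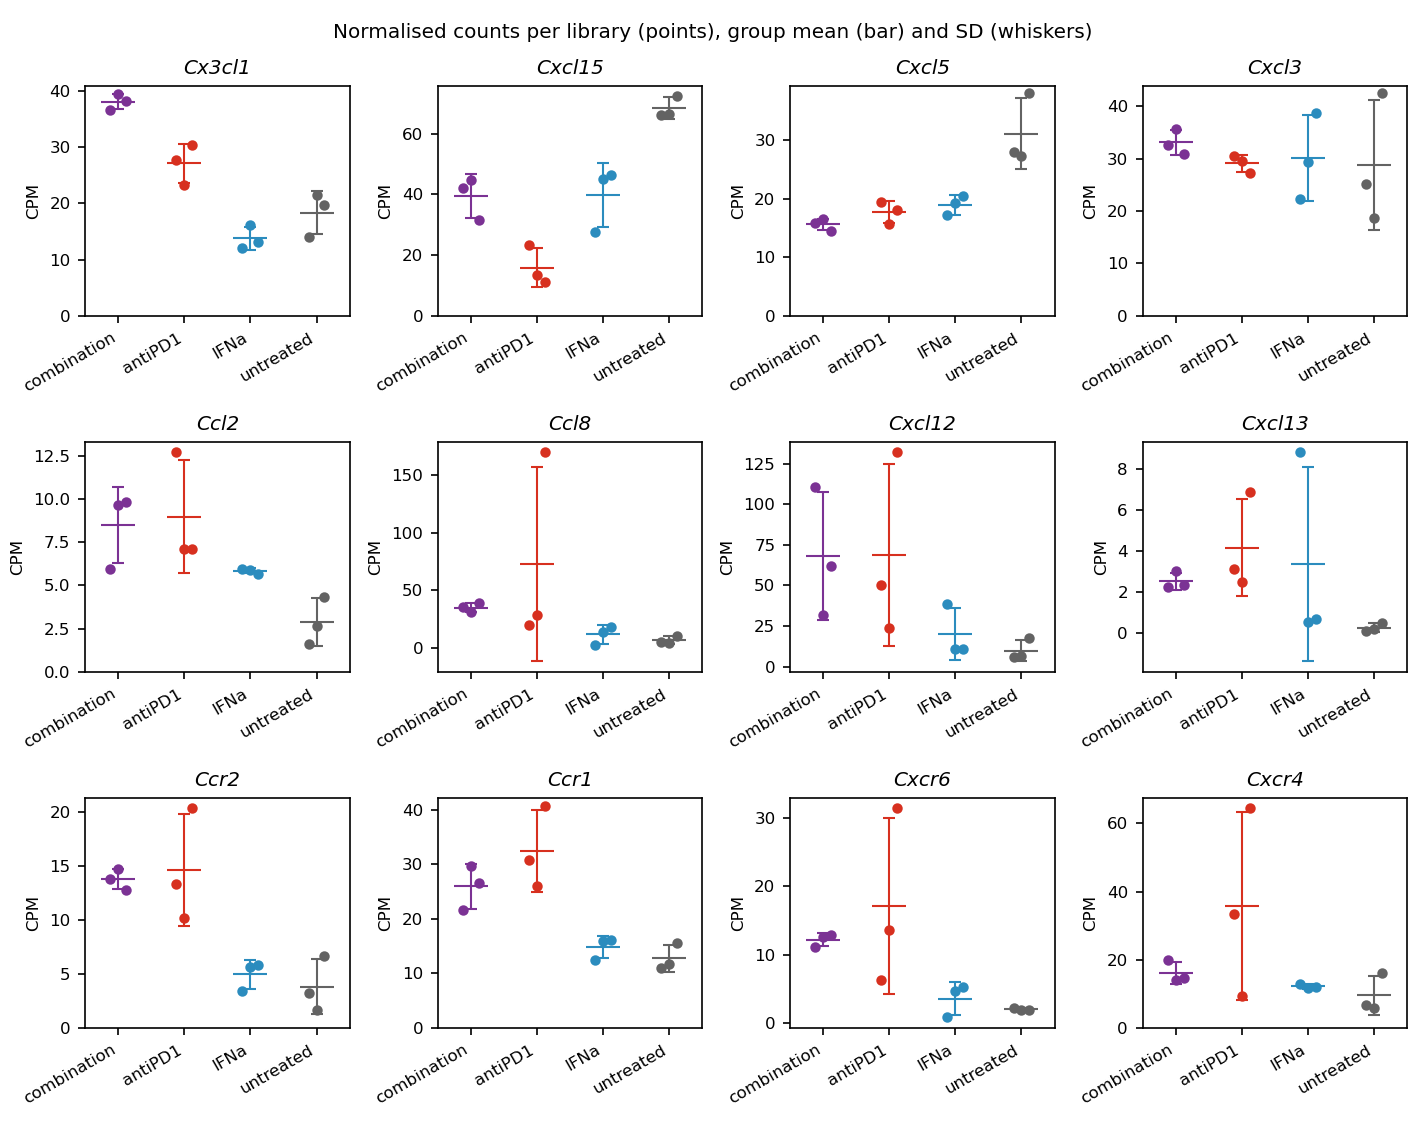
CPM of 12 members in each library (points) with the group mean and SD, in combination, antiPD1, IFNa and untreated libraries. Cx3cl1 steps down from combination to antiPD1 to the other groups without overlap between combination and any other group, Cxcl5 and Cxcl15 are highest in untreated libraries, and Ccl8, Cxcr6 and Cxcr4 show the distance of antiPD1 replicate 3.

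Cx3cl1, the membrane-bound ligand fractalkine, was the only one of the 44 members with all 3 combination libraries above all 9 others. How many of all genes had that order was not counted. Against antiPD1 libraries alone, 3 members were higher in the combination without overlap, beside 7.49% of all genes. Cx3cl1 lies at chr8:94772009-94782427 (GRCm38, plus strand), near Ccl17 and Ccl22. It had 36.7, 39.5 and 38.2 CPM in combination libraries, 27.7, 23.3 and 30.4 in antiPD1, 12, 16.1 and 13.2 in IFNa, and 14.0, 21.5 and 19.6 in untreated libraries. Below the combination, antiPD1 libraries were above IFNa and untreated ones, and IFNa and untreated libraries overlapped. Cx3cl1 rose with the combination against untreated libraries (1.05 ± 0.17 SE, adjusted p = 0.0122) and with antiPD1 (0.56 ± 0.17 SE, adjusted p = 0.0493). It was the only member to pass for the combination against IFNa, at 1.47 ± 0.17 (SE, adjusted p = 0.0112), where 0.342% of all genes rose and 0.614% fell. The call for the combination against untreated was lost without combination replicate 3, and the antiPD1 call was lost without every library except IFNa replicate 1 and antiPD1 replicate 2. The call against IFNa was lost without combination replicate 2 or combination replicate 3. The combination against antiPD1 gave 0.49 ± 0.17 (SE, adjusted p = 0.997), IFNa against untreated -0.42 ± 0.17 (SE, adjusted p = 0.885) and the interaction 0.91 ± 0.24 (SE, adjusted p = 0.569), none of which passed. Endothelial cells are a known source of Cx3cl1. Of 8 endothelial markers 0 rose in either comparison, with sums of 188 to 291 CPM in combination, 81.3 to 421 CPM in antiPD1, 151 to 306 CPM in IFNa and 98.4 to 225 CPM in untreated libraries, and their part in Cx3cl1 was not tested.

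Its receptor Cx3cr1, found on monocytes, macrophages and NK cells, had 17.4, 17.0 and 18.3 CPM in combination libraries, 7.79, 15.7 and 19.4 in antiPD1, 1.32, 5.63 and 6.08 in IFNa, and 4.54, 2.27 and 7.70 in untreated libraries. Combination and antiPD1 libraries were above untreated ones. The log2 fold change was 1.86 ± 0.56 (SE, adjusted p = 0.0528) for the combination and 1.56 ± 0.56 (SE, adjusted p = 0.0802) for antiPD1. Cxcl16, the other membrane-bound ligand, had 89.5, 97.7 and 98.8 CPM in combination libraries, 73.2, 92.9 and 196 in antiPD1, 38.8, 54.6 and 57.9 in IFNa, and 29.3, 35.2 and 57.7 in untreated libraries. Libraries that received antiPD1 were above the untreated range, which reached 57.7 CPM, and IFNa replicate 3 was just above it. Cxcl16 rose by 1.23 ± 0.35 (SE, adjusted p = 0.0464) with the combination and 1.57 ± 0.36 (SE, adjusted p = 0.0233) with antiPD1. An exon of Cxcl16 overlaps 552 bases of Zmynd15 on the opposite strand, and the strand setting of the counts is not given in the sources used here. Zmynd15 itself had 9.48 ± 1.78 CPM in combination, 9.71 ± 4.59 CPM in antiPD1, 4.05 ± 1.84 CPM in IFNa and 2.54 ± 1.27 CPM in untreated libraries, far below Cxcl16. Cxcr6, the receptor of Cxcl16, is carried by resident T cells and NK cells and had 11.1, 12.6 and 12.8 CPM in combination libraries, 6.32, 13.6 and 31.4 in antiPD1, 0.811, 4.66 and 5.19 in IFNa, and 2.20, 1.83 and 1.83 in untreated libraries. Untreated libraries lay below both of these groups. Cxcr6 rose by 2.64 ± 0.66 (SE, adjusted p = 0.0323) with the combination and 3.13 ± 0.67 (SE, adjusted p = 0.0213) with antiPD1, and the antiPD1 value was 2.36 with an adjusted p of 0.0618 without antiPD1 replicate 3.

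Of 7 homeostatic ligands, 2 rose with the combination and 3 with antiPD1. Cxcl12, the ligand of Cxcr4 made by stromal cells, had 110.4, 32.0 and 62.1 CPM in combination libraries, 50.4, 24.0 and 132 in antiPD1, 38.3, 10.9 and 10.6 in IFNa, and 5.87, 6.33 and 17.4 in untreated libraries. Combination and antiPD1 libraries were above untreated ones, yet they differed by several-fold within a group. Cxcl12 rose by 2.79 ± 0.78 (SE, adjusted p = 0.0433) with the combination and 2.80 ± 0.78 (SE, adjusted p = 0.0386) with antiPD1. Without antiPD1 replicate 3 the antiPD1 value was 1.92 with an adjusted p of 0.155, and without untreated replicate 3 it was 3.48 with the combination and 3.49 with antiPD1. Cxcr4 itself had 19.9, 14.0 and 14.5 CPM in combination libraries, 33.4, 9.34 and 64.4 in antiPD1, 13.0, 11.5 and 12.1 in IFNa, and 6.61, 5.89 and 16.1 in untreated libraries. Replicate 2 of antiPD1 lay within the untreated range while the other 2 antiPD1 libraries were above it. Cxcr4 was 0.76 ± 0.57 (SE, adjusted p = 0.382) for the combination and 1.91 ± 0.58 (SE, adjusted p = 0.05) for antiPD1, just short of the threshold of 0.05. The antiPD1 value was 1.17 without antiPD1 replicate 3 and 2.51 with an adjusted p of 0.0266 without untreated replicate 3, and the combination gave 1.36 without untreated replicate 3. Fibroblast markers, 8 genes, summed to 1534 to 1889 CPM in combination, 1488 to 4189 CPM in antiPD1, 1290 to 1494 CPM in IFNa and 456 to 1695 CPM in untreated libraries. Of them 0 rose with the combination and 3 with antiPD1, and their part in Cxcl12 was not tested.

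Cxcl13, which draws B cells through Cxcr5, had 2.26, 3.02 and 2.34 CPM in combination libraries, 3.14, 2.49 and 6.85 in antiPD1, 8.80, 0.572 and 0.708 in IFNa, and 0.0973, 0.203 and 0.519 in untreated libraries. IFNa replicate 1 held the highest value of all 12 libraries, and untreated libraries lay below all others. Cxcl13 rose with antiPD1 at 3.90 ± 1.07 (SE, adjusted p = 0.0359), which was 4.76 without untreated replicate 3. The combination gave 3.19 ± 1.05 (SE, adjusted p = 0.0677), IFNa 3.59 ± 1.06 (SE, adjusted p = 0.866) and the interaction -4.30 ± 1.38 (SE, adjusted p = 0.772). Without IFNa replicate 1 these were 1.21 for IFNa and -1.91 for the interaction, and without untreated replicate 3 IFNa gave 4.45, the interaction -5.16 and the combination 4.05. Its receptor Cxcr5 was scarce, with 27, 17 and 26 counts in combination libraries, 12, 33 and 39 in antiPD1, 0, 18 and 4 in IFNa, and 1, 3 and 8 in untreated libraries. Counts were higher in combination and antiPD1 libraries than in untreated ones without overlap. The log2 fold changes of 2.33 ± 0.99 (SE, adjusted p = 0.134) for the combination and 2.68 ± 0.99 (SE, adjusted p = 0.0869) for antiPD1 rest on 12 counts in all in the untreated group, depend on the prior count of the fit, and were 3.24 for the combination and 3.58 for antiPD1 without untreated replicate 3. B and plasma cell markers, 6 genes, summed to 26.4 to 32.3 CPM in combination, 28.1 to 65.7 CPM in antiPD1, 1.5 to 4.17 CPM in IFNa and 2.54 to 3.48 CPM in untreated libraries. Of these 6, 3 rose with the combination and 5 with antiPD1, Mzb1 had libraries at 0, and their part in Cxcl13 and Cxcr5 was not tested.

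Ccl19 and Ccl21a guide dendritic cells and naive T cells through Ccr7. Both are annotated at 2 loci and have near-identical copies in GRCm38, so their counts are uncertain. Ccl19 had 53, 49 and 61 counts in combination libraries, 30, 70 and 125 in antiPD1, 1, 11 and 10 in IFNa, and 0, 2 and 14 in untreated libraries. The groups that received antiPD1 did not overlap with the untreated libraries, one of which had no count. Ccl19 rose with antiPD1 at 3.73 ± 0.99 (SE, adjusted p = 0.0329), against 3.03 with an adjusted p of 0.110 without antiPD1 replicate 3 and 5.95 without untreated replicate 3, and the combination gave 3.16 ± 0.98 (SE, adjusted p = 0.0559), or 5.38 with an adjusted p of 0.0168 without untreated replicate 3. Ccl21a had 15, 4.62 and 5.19 CPM in combination libraries, 2.24, 3.21 and 5.68 in antiPD1, 1.80, 2.26 and 1.68 in IFNa, and 0.616, 0.812 and 2.51 in untreated libraries. Combination replicate 1 was far above the other 2, which were above the untreated range. Ccl21a rose with the combination at 2.65 ± 0.62 (SE, adjusted p = 0.0273), but at 1.90 with an adjusted p of 0.0903 without combination replicate 1 and at 3.53 without untreated replicate 3. AntiPD1 gave 1.49 ± 0.61 (SE, adjusted p = 0.113), which was 2.37 with an adjusted p of 0.0291 without untreated replicate 3. Ccr7, the shared receptor, had 1.33, 1.72 and 1.88 CPM in combination libraries, 1.98, 2.49 and 8.05 in antiPD1, 0.300, 0.829 and 0.891 in IFNa, and 0.551, 0.440 and 0.978 in untreated libraries. AntiPD1 libraries were the highest and lay above the combination libraries, which lay above untreated ones. Ccr7 rose with antiPD1 at 2.66 ± 0.60 (SE, adjusted p = 0.0229), which was 1.77 with an adjusted p of 0.0759 without antiPD1 replicate 3. The combination gave 1.31 ± 0.59 (SE, adjusted p = 0.155) against untreated and -1.35 ± 0.57 (SE, adjusted p = 0.997) against antiPD1, where the value was -0.45 without antiPD1 replicate 3. The other 3 homeostatic ligands, Cxcl14, Ccl25 and Ccl27a, did not pass in any comparison.

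Among receptors of inflammatory ligands, 4 of 6 rose with the combination and 5 of 6 with antiPD1. Ccr1, a receptor of Ccl3, Ccl6 and Ccl9 on monocytes and neutrophils, had 21.5, 29.7 and 26.6 CPM in combination libraries, 30.7, 26.0 and 40.6 in antiPD1, 12.5, 15.8 and 16.1 in IFNa, and 10.9, 11.7 and 15.5 in untreated libraries. No library with antiPD1, alone or in the combination, reached down to the untreated range. Ccr1 rose by 1.02 ± 0.20 (SE, adjusted p = 0.0179) with the combination and 1.35 ± 0.20 (SE, adjusted p = 0.0154) with antiPD1. Ccr2, the monocyte receptor of Ccl2, Ccl7 and Ccl12, had 13.8, 14.7 and 12.8 CPM in combination libraries, 13.3, 10.2 and 20.4 in antiPD1, 3.42, 5.61 and 5.79 in IFNa, and 3.18, 1.62 and 6.66 in untreated libraries. No library of these 2 groups fell within the untreated range. Ccr2 rose by 1.85 ± 0.44 (SE, adjusted p = 0.0278) with the combination and 1.93 ± 0.44 (SE, adjusted p = 0.0233) with antiPD1, and by 2.52 and 2.6 for the combination and antiPD1 without untreated replicate 3. Ccr3, known as the eotaxin receptor of eosinophils, had 1.27, 0.902 and 1.16 CPM in combination libraries, 0.680, 0.610 and 1.40 in antiPD1, 0.150, 0.515 and 0.262 in IFNa, and 0.259, 0.102 and 0.244 in untreated libraries. Its combination and antiPD1 libraries were above the untreated ones, which held at most 8 counts each. Ccr3 rose by 2.43 ± 0.55 (SE, adjusted p = 0.0243) with the combination and 2.12 ± 0.55 (SE, adjusted p = 0.0312) with antiPD1. Cxcr1, a receptor of neutrophils, had 6, 16 and 15 counts in combination libraries, 5, 13 and 27 in antiPD1, 3, 7 and 7 in IFNa, and 3, 2 and 0 in untreated libraries. AntiPD1 libraries were above untreated ones at these low counts, and the fitted rise of 2.99 ± 0.90 (SE, adjusted p = 0.0473) depends on the prior count. Without antiPD1 replicate 3 it was 2.16 with an adjusted p of 0.186, and without untreated replicate 1 it was 3.67 with an adjusted p of 0.113.

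Receptors of lymphocytes and dendritic cells had 2 of 9 members that rose with the combination (Ccr6 and Cxcr6) and 4 of 9 with antiPD1 (Ccr6, Ccr7, Ccr8 and Cxcr6). Their median log2 fold change was 2.33 with the combination and 2.66 with antiPD1. Ccr8, a receptor of regulatory T cells, had 0.705, 0.989 and 1.52 CPM in combination libraries, 0.340, 0.859 and 3.99 in antiPD1, 0, 0.200 and 0.131 in IFNa, and 0.0648, 0.271 and 0.183 in untreated libraries. AntiPD1 replicate 3 was again the highest, and both groups were above the untreated range. Ccr8 rose with antiPD1 at 3.29 ± 1.0 (SE, adjusted p = 0.0487), which was 1.79 with an adjusted p of 0.237 without antiPD1 replicate 3, and the combination gave 2.61 ± 0.99 (SE, adjusted p = 0.101). Ccr6 and its ligand Ccl20 are known in Th17 cells, B cells and dendritic cells. Ccr6 had 7, 16 and 13 counts in combination libraries, 14, 16 and 23 in antiPD1, 0, 1 and 2 in IFNa, and 1, 1 and 4 in untreated libraries. Each library of the combination and antiPD1 held more counts than any untreated library. Ccr6 rose by 2.35 ± 0.69 (SE, adjusted p = 0.049) with the combination and 2.97 ± 0.68 (SE, adjusted p = 0.0233) with antiPD1, values that rest on 6 untreated counts in all and that were 3.22 for the combination and 3.85 for antiPD1 without untreated replicate 3. Ccl20 had 13, 49 and 28 counts in combination libraries, 11, 33 and 8 in antiPD1, 2, 13 and 25 in IFNa, and 18, 1 and 9 in untreated libraries. Groups overlapped, and it gave 1.5 ± 0.92 (SE, adjusted p = 0.282) for the combination and 0.73 ± 0.93 (SE, adjusted p = 0.609) for antiPD1, the antiPD1 value being -0.06 without antiPD1 replicate 2.

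Xcl1, released by NK cells and CD8 T cells, had 1.78, 1.66 and 2.90 CPM in combination libraries, 0.708, 2.55 and 1.72 in antiPD1, 0.120, 1.09 and 1.18 in IFNa, and 0.551, 0.271 and 1.01 in untreated libraries. Combination libraries were above untreated ones, and antiPD1 replicate 1 fell within their range. Xcl1 gave 1.78 ± 0.74 (SE, adjusted p = 0.128) for the combination and 1.43 ± 0.74 (SE, adjusted p = 0.196) for antiPD1. Its receptor Xcr1, found on cross-presenting dendritic cells, had 73, 56 and 100 counts in combination libraries, 17, 48 and 77 in antiPD1, 0, 13 and 12 in IFNa, and 6, 8 and 20 in untreated libraries. The combination did not overlap with untreated libraries, and IFNa replicate 1 had no count. Xcr1 gave 2.56 ± 0.84 (SE, adjusted p = 0.0673) for the combination and 1.98 ± 0.84 (SE, adjusted p = 0.124) for antiPD1, which was 1.33 without antiPD1 replicate 3. T cell markers rose in 3 of 10 genes with the combination and 10 of 10 with antiPD1, with sums of 109 to 138 CPM in combination, 70.7 to 318 CPM in antiPD1, 22.7 to 56.1 CPM in IFNa and 31.5 to 41.7 CPM in untreated libraries. Dendritic cell markers rose in 2 of 6 genes with the combination and 3 of 6 with antiPD1, with sums of 113 to 146 CPM in combination, 90.3 to 261 CPM in antiPD1, 16.7 to 70.1 CPM in IFNa and 35.5 to 59.5 CPM in untreated libraries, and Cd209a and Siglech had libraries at 0. Their part in the receptor values was not tested.

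Ligands of dendritic, T helper and eosinophil receptors had 0 of 7 calls with the combination and with antiPD1, where 7.58% and 9.76% of all genes rose. Of the 7, 6 had fold changes above 0 in each, with medians of 1.35 for the combination and 1.16 for antiPD1. Ccl22, a product of dendritic cells and macrophages that binds Ccr4, had 1.66, 3.05 and 3.17 CPM in combination libraries, 1.90, 2.97 and 6.11 in antiPD1, 0.270, 1.23 and 1.13 in IFNa, and 0.875, 0.677 and 1.53 in untreated libraries. Untreated libraries lay below those of the combination and antiPD1, and IFNa replicate 1 was the lowest of all. Ccl22 gave 1.35 ± 0.59 (SE, adjusted p = 0.145) for the combination and 1.82 ± 0.60 (SE, adjusted p = 0.0616) for antiPD1. Ccr4, carried by Th2 and regulatory T cells, had 4, 9 and 22 counts in combination libraries, 5, 13 and 11 in antiPD1, 1, 10 and 9 in IFNa, and 11, 10 and 14 in untreated libraries. Its mean CPM was highest in the untreated group, and its fold changes of -0.19 ± 0.70 (SE, adjusted p = 0.874) for the combination and -0.39 ± 0.71 (SE, adjusted p = 0.731) for antiPD1 did not pass, the combination value lying between -0.99 and 0.21 when 1 library was left out. Cxcl17, chosen after its values were seen, lay below the untreated libraries without overlap in the combination. Among the members only Cxcl5, Cxcl15 and Cxcl2 did so too, beside 24.8% of all genes. Cxcl17 had 6, 3 and 2 counts in combination libraries, 7, 5 and 1 in antiPD1, 53, 14 and 7 in IFNa, and 12, 14 and 17 in untreated libraries. IFNa replicate 1 was the highest, and the combination gave -2.11 ± 0.84 (SE, adjusted p = 0.113) and antiPD1 -1.85 ± 0.82 (SE, adjusted p = 0.141). Members of this group and the rest that are not named here with values (Ccl1, Ccl17, Ccl24, Cxcl14, Ccl25, Ccl27a and Ccr9) had adjusted p-values above 0.05 in all 6 comparisons. Over the 12 libraries, Ccl24, an eotaxin that binds Ccr3, had 8.59 to 48.1 CPM, Cxcl14 0.542 to 10 CPM, Ccl25 2.69 to 4.90 CPM, Ccl27a 2.32 to 4.43 CPM, Ccl17 0.195 to 0.938 CPM, Ccl1 0 to 0.579 CPM and Ccr9 0.0300 to 1.14 CPM.

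No member passed with IFNa alone. With an unadjusted p under 0.05, 4 members were higher (Ccl12, Ccl2, Ccl7 and Cxcl13) and 3 lower (Cx3cl1, Cxcl15 and Cxcl5), where 2.24% and 3.35% of all genes were. By limma 0 passed, and DESeq2 called 2, Cxcl13 higher and Cxcl5 lower, beside 37 of all genes. The 3 IFNa libraries overlapped with untreated ones for all members except 3 higher (Ccl2, Ccl7 and Cxcl13) and 4 lower (Ccr4, Cxcl1, Cxcl15 and Cxcl5), beside 4.96% and 5.22% of all genes.

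The main fit did not separate the combination from antiPD1 alone for any member. For the combination against antiPD1, 0 of the 44 members passed, where 0% of all genes did, and the member median was -0.18 beside -0.02 over all genes. That median was 0.15 without antiPD1 replicate 3, with 30 of 44 fold changes above 0 in place of 13. Libraries did not overlap for 3 members higher (Cx3cl1, Cxcl15 and Cxcl3) and 2 lower (Ccr7 and Cxcl2), beside 7.49% and 6.66% of all genes. At an unadjusted p under 0.05, Cx3cl1 and Cxcl15 were higher and Ccr7, Cxcl1 and Cxcl2 lower with the combination, where 2.19% and 2.57% of all genes were. DESeq2 called 1 member, Cxcl15, beside 15 of all genes. Ccl21a had the next smallest p among higher members, at 1.16 ± 0.59 (SE, adjusted p = 0.997), and this was 0.40 without combination replicate 1. For the combination against IFNa the median was 1.08 beside 0.02 over all genes, and 37 of 44 fold changes were above 0. Cx3cl1 alone passed with edgeR, where 0.342% of all genes rose and 0.614% fell. DESeq2 called 15 members, beside 1666 of all genes. Libraries did not overlap for 27 members higher and 2 lower, beside 20.3% and 16.4% of all genes. Without antiPD1 replicate 3, which is in neither group but in the shared estimate of the spread, 11 members and 1452 of all genes passed. Without combination replicate 2 or combination replicate 3 no member did, where 0 and 3 of all genes were called.

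For the interaction of IFNa and antiPD1 0 members passed, where 0% of all genes did, with a member median of -0.65 beside -0.03. At an unadjusted p under 0.05, Cx3cl1, Cxcl15 and Cxcl5 were higher (3.59% of all genes) and Ccl7 and Cxcl13 lower (2.46%). DESeq2 called Cxcl15, beside 55 of all genes. Cxcl5 had 0.53 ± 0.21 (SE, adjusted p = 0.799), Ccl7 -1.18 ± 0.50 (SE, adjusted p = 0.799) and Ccl2 -1.12 ± 0.51 (SE, adjusted p = 0.799). A p that misses the threshold does not show that the treatments acted alike.

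Other genes of the chemokine pathway were counted beside the members. Over all genes tested, 7.58% rose and 5% fell with the combination, and 9.76% rose and 5.08% fell with antiPD1. Of 24 genes of signalling below the receptors, 11 rose with the combination and 12 rose and 1 fell with antiPD1. Examples are Rac2, a leukocyte GTPase of migration, at 1.70 ± 0.43 (SE, adjusted p = 0.0335) with the combination and 1.94 ± 0.43 (SE, adjusted p = 0.0228) with antiPD1, and the PI3-kinase subunit gene Pik3r5 at 2.15 ± 0.44 (SE, adjusted p = 0.0193) with the combination and 2.26 ± 0.45 (SE, adjusted p = 0.0202) with antiPD1. Of 10 other chemoattractant receptors, 7 rose in each comparison, among them the formyl peptide receptor Fpr2 at 3.21 ± 0.60 (SE, adjusted p = 0.0163) with the combination and 3.07 ± 0.60 (SE, adjusted p = 0.0199) with antiPD1 and the complement receptor C5ar1 at 2.04 ± 0.39 (SE, adjusted p = 0.0164) with the combination and 2.20 ± 0.39 (SE, adjusted p = 0.0191) with antiPD1. None of the 4 tested atypical receptors passed. Of 12 inducers of chemokine genes, 3 rose in each comparison, among them Tnf and Ifng, with Ifng at 2.57 ± 0.52 (SE, adjusted p = 0.0188) with the combination and 2.59 ± 0.52 (SE, adjusted p = 0.0207) with antiPD1. In ligand processing and presentation, 2 rose and 2 fell of 10 with the combination and 3 rose with antiPD1, including Mmp2 at 2.1 ± 0.53 (SE, adjusted p = 0.0328) with the combination and 2.67 ± 0.54 (SE, adjusted p = 0.0207) with antiPD1. Dpp4, a protease that trims chemokines, was 1.58 ± 0.52 (SE, adjusted p = 0.0669) with the combination and 1.92 ± 0.52 (SE, adjusted p = 0.0357) with antiPD1. Among platelet chemokines that the symbol rule does not match, Pf4 was 1.53 ± 0.47 (SE, adjusted p = 0.0552) with the combination and 2.27 ± 0.48 (SE, adjusted p = 0.0208) with antiPD1 and Ppbp 0.15 ± 0.39 (SE, adjusted p = 0.814) with the combination and -0.64 ± 0.39 (SE, adjusted p = 0.271) with antiPD1. All values here are log2 fold changes against untreated libraries.

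The 5 genes that the member rule left out were tested in the same fit. Against untreated libraries, log2 fold changes with the combination were 1.79 to 2.18 and all but that of Ccl5 passed, and with antiPD1 they were 1.40 to 3.30 and all 5 passed. Over all genes, 7.58% rose with the combination and 9.76% with antiPD1.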

How the data were processed

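RNA-seq was compared between 4 groups of 3 libraries. Gene counts and FPKM values were used as the authors deposited them, 1 column per library and not pooled. HISAT2 2.1.0, HTSeq, Cufflinks and the mm10 build are named in the submitters' processing notes, while the annotation and strand setting were not stated. Counts were tested with edgeR 4.0.16 (R 4.3.3; TMM scaling, filterByExpr with a minimum count of 10, quasi-likelihood test, Benjamini-Hochberg adjustment over 14330 genes, threshold 0.05). All 12 libraries entered 1 fit without a replicate block, and the interaction was the combination minus antiPD1 minus IFNa plus untreated. CPM used TMM library sizes. FPKM, as deposited by the authors, was used where levels of different genes were compared.

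Members, role groups and lists were chosen with earlier results of these data known, and no set test was run. 1 member and 1 gene of another list are not reported here, though they are in the counts; all other called members are named. Values in every library are given for up to 8 called members per comparison, those with the largest absolute fold change and at least 1 CPM in the higher group. Where none was called, the 3 with the smallest p in each direction are given, and 9 ligand and receptor pairs and 4 further ligands are given throughout. Alternatives were RLE size factors, no filter, DESeq2 1.42.0, limma 3.58.1 on log2 FPKM with pseudocounts of 1 and 0.1, fits of the compared groups alone, a replicate block and leaving out libraries. Positions came from GENCODE M21 on GRCm38, promoters from RefSeq, and near-identical copies from blastn 2.17.0. A count of 3 in a library corresponded to 0.0786 to 0.102 CPM, for counting error only. Near-identical copies and genes on the opposite strand could share reads.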

Additional observations from a re-analysis of the deposited data

How the results depend on the processing

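All fold changes of named members kept their sign where they were called. With RLE size factors, without a low-count filter, or with limma on log2(FPKM + 0.1), no count of called members left the range of 1.5 times its reported value. The antiPD1 count against untreated was 24 as reported, beside 1398 genes higher and 728 lower over all genes tested. It was 0 with only the compared groups in the fit (0 of all genes) and 15 with limma on log2(FPKM + 1) (947 genes). The same limma test without a filter gave 14 (732 genes), and limma with its FPKM filter tested 30 of the 44 members. Leaving out 1 library gave 0 to 29 members, beside 5 to 3027 of all genes. For the combination against untreated it was 17 as reported (1086 genes higher and 717 lower) and 26 with DESeq2 (2979 genes). It was 30 with only the compared groups (3789 genes) and 32 without both IFNa replicate 1 and antiPD1 replicate 3 (4200 genes). With 1 library left out it was 0 to 25, beside 33 to 2917 of all genes. For the combination against IFNa it was 1 as reported (49 genes higher and 88 lower) and 15 with DESeq2 (1666 genes). It was 8 with only the compared groups (1132 genes) and 3 with limma on log2(FPKM + 1) (138 genes). Without both named libraries it was 8 (1305 genes), and with 1 left out 0 to 11 (0 to 1452 genes). DESeq2 called 2 members for IFNa, 1 for the combination against antiPD1 and 1 for the interaction. Over all genes it called 37, 15 and 55 in the same order. The edgeR count of members was 0 in each of these, as reported and when 1 library was left out. DESeq2 was not run with libraries left out. The cause of these moves was not tested. A fit of the compared groups alone was not possible for the interaction, which needs all 4.

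With the replicate number as a block, 26 members were called for antiPD1, 24 for the combination, 10 for the combination against IFNa and 0 for IFNa, the combination against antiPD1 and the interaction. Over all genes the block gave 2388 calls for antiPD1, 2174 for the combination and 542 for the combination against IFNa. Of 18 pairs of libraries with the same number, 8 had correlated deviations above 0.1 (range -0.304 to 0.503). Pairs with different numbers ranged from -0.604 to 0.505. The first range lay within the second, so the numbers were not taken to pair the libraries, though this does not exclude a pairing. Ccl1, Ccr6, Ccr9, Cxcr1 and Cxcr5 had at most 12 counts summed over the untreated libraries, which limits their fold changes.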
